A study of Mus musculus with 28 samples.

Results

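Embryoid bodies (EBs) made from CJ7 mouse embryonic stem cells whose Elongin A carries methionine in place of its lysine K754 (K754M) were compared with EBs of the unedited CJ7 line. Both groups had 2 libraries, so the comparison used 4 of the 28 libraries of the series, chosen by their labels alone. It is described over the 19300 of 37583 listed genes that were expressed well enough to be tested. EBs are aggregates of differentiating cells, collected here on day 5 after LIF, the cytokine that holds stem cells undifferentiated, was withdrawn. The groups were EloAK754M edited CJ7 EBs, the same line edited to arginine (K754R), Eed null CJ7 EBs and wild type CJ7 EBs, with 2 libraries each, and the undifferentiated stem cells of the K754M and wild type lines, also with 2 each. K754R and Eed null stem cells, again with 2 libraries each, were fitted together with these stem cells. The labels do not say how many edited clones each line stands for, nor whether replicates were separate cultures. The p-values therefore set a difference between groups against the spread among libraries of the same group, which may be technical alone. A feature of 1 clone cannot be told apart from the substitution. Before differentiation the stem cells grew on mouse fibroblast feeders with LIF and 2 inhibitors, and feeders were depleted by plating.

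Elongin A is the large subunit of Elongin, which raises the rate at which RNA polymerase II elongates and also serves as substrate receptor of a ubiquitin ligase. Polycomb repressive complex 2 (PRC2) methylates lysine 27 of histone H3 and holds developmental genes silent, and the title of the series names Elongin A as another protein that it methylates. Eed is the PRC2 subunit that binds the methylated histone tail and is needed for activity. In EBs these systems meet the exit from pluripotency and the start of the germ layers.

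Ribosomal RNA was depleted from total RNA, and the deposited values are RPKM, read numbers divided by gene length and library size. Estimated from the RPKM step that 1 read gives, the depth was about 32050000 and 32580000 reads in the K754M EBs and 31450000 and 32030000 reads in the wild type EBs. A log2 change below is the difference of group means of log2(RPKM + 0.5), given ± its standard error, which understates the change of genes near or under 0.5 RPKM. "Rose", "fell" and "called" are used for a limma adjusted p below 0.05 (Benjamini-Hochberg over all tested genes). The spread was estimated from the 8 CJ7 EB libraries together.

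In K754M EBs 35 genes rose and 74 fell, 109 of the 19300 tested. These are 0.565% of the tested genes, 0.181% higher and 0.383% lower, and 2934 genes had an unadjusted p below 0.05. The median log2 change over all tested genes was 0.01. The falls ran up to -3.32 (Psmb8) and the rises up to 2.38 (Acta2), with 25 rises and 58 falls of at least 2-fold. The number of calls rested on all 4 libraries. It was 17 without wild type replicate 1, and 0 without wild type replicate 2, without K754M replicate 1 or without K754M replicate 2. With the 4 compared libraries fitted alone it was also 0. The sign of each of the 109 genes was the same in every one of these fits that gave it a value. A fit of the 4 libraries alone keeps the group means. Leaving out 1 library cannot turn the sign of a gene whose groups do not overlap. The kept signs are therefore no added support.

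**Figure D1:**
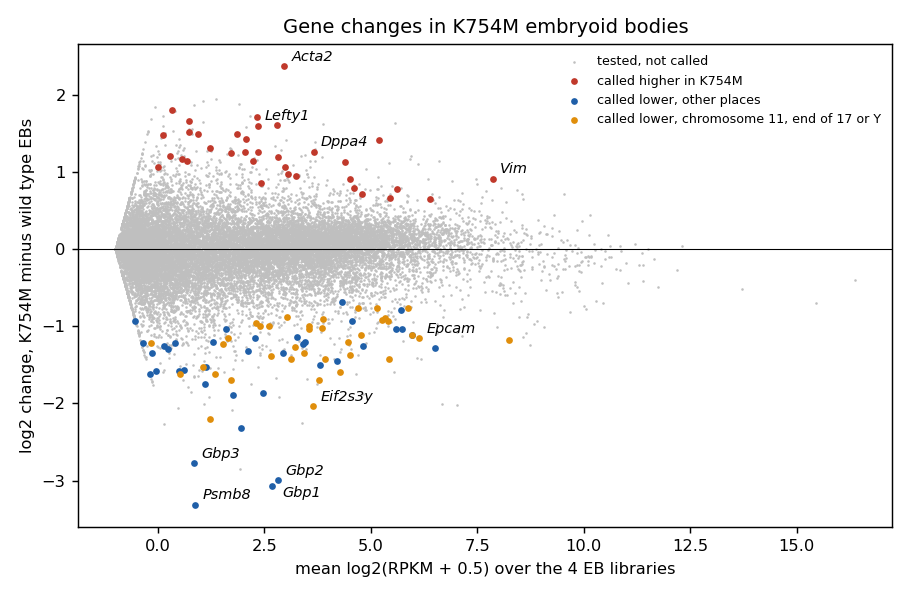
Each point is a gene, with its mean log2(RPKM + 0.5) over the 4 EB libraries on the x axis and its log2 change, K754M minus wild type EBs, on the y axis. Red points are the 35 genes called higher, blue and orange points the 74 called lower, and orange marks those on chromosome 11, at the end of chromosome 17 or on Y; the lowest points are Psmb8, Gbp1, Gbp2 and Gbp3.

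Tceb3, which encodes Elongin A, had 9.67 and 11.4 RPKM in K754M EBs, against 10.1 and 11.6 RPKM in wild type EBs (-0.04 ± 0.16, limma adjusted p = 0.94), and the groups overlapped. None of the 8 tested genes of the Elongin list was called, with a median log2 change of 0.05 against 0.01 over all tested genes. Tceb1 and Tceb2, the small Elongin subunits, had log2 changes of -0.12 ± 0.14 and 0.13 ± 0.16. None of the 12 PRC2 genes was called either (median 0.01). Eed had 49.8 and 50.5 RPKM in K754M EBs, against 49.6 and 55.3 RPKM in wild type EBs (-0.06 ± 0.10, limma adjusted p = 0.832), and the catalytic subunit Ezh2 had 15.7 and 16.998 RPKM in K754M EBs, against 16.8 and 17.6 RPKM in wild type EBs. Suz12, the subunit that holds PRC2 together, had 19.4 and 24.4 RPKM in K754M EBs, against 33.6 and 42.3 RPKM in wild type EBs (-0.78 ± 0.23, limma adjusted p = 0.187), with no overlap between groups but no call. Suz12 lies on chromosome 11, whose genes as a whole were lower in K754M, K754R and Eed null EBs than in wild type EBs, as described further on.

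The largest falls were in genes that interferons induce. Interferons are secreted antiviral signals whose targets include GTPases that attack pathogens, the immunoproteasome, and the peptide transporters and class I molecules of antigen presentation. Of the 19 tested genes of the interferon list 7 fell and none rose, beside 0.383% of all tested genes that fell, and the groups did not overlap in 15 of the 19, all lower in K754M, beside 23.7% of all tested genes. The median log2 change over the 19 was -0.50, and here as elsewhere in bulk RNA fewer expressing cells and less RNA per cell cannot be told apart. Without wild type replicate 1 the 7 falls were 4, and without any one of the other 3 libraries they were 0. A further 15 falls are genes known as interferon-induced or as part of antigen presentation, which were picked out after their values were seen and so carry no count of their own as evidence. Together they made 22 of the 74 falls, of which 13 were not placed on chromosome 11 or 17.

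Psmb8, a catalytic subunit of the immunoproteasome, had 0.125 and 0.0449 RPKM in K754M EBs, against 4.74 and 5.94 RPKM in wild type EBs (-3.32 ± 0.20, limma adjusted p = 0.00351). Both K754M libraries lay close to the bottom of the range and both wild type libraries clearly above 1 RPKM. Its partner subunit Psmb9 is listed at 0 in all 4 libraries. Erap1, which trims peptides for class I molecules, had 2.88 and 2.69 RPKM in K754M EBs, against 6.74 and 6.84 RPKM in wild type EBs (-1.15 ± 0.15, limma adjusted p = 0.0371). Tap2, a subunit of the transporter that brings peptides to class I molecules, had 0.192 and 0.309 RPKM in K754M EBs, against 1.19 and 1.49 RPKM in wild type EBs (-1.297 ± 0.19). Its partner Tap1 had 3.096 and 1.92 RPKM in K754M EBs, against 4.48 and 5.12 RPKM in wild type EBs, with no overlap and no call (-0.84 ± 0.21, limma adjusted p = 0.138). The class I heavy chain H2-K1 had 17.6 and 18.1 RPKM in K754M EBs, against 37.9 and 49.6 RPKM in wild type EBs (-1.26 ± 0.17, limma adjusted p = 0.039), and H2-D1 had 6.42 and 5.47 RPKM in K754M EBs, against 14.1 and 13.3 RPKM in wild type EBs (-1.14 ± 0.17, limma adjusted p = 0.0495). Their shared light chain B2m was 47.9 and 42.9 RPKM in K754M EBs and 57.3 and 55.7 RPKM in wild type EBs, lower in both K754M libraries but not called. The H2 genes have near-identical copies, between which the counting may have split reads, so their levels are uncertain.

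Genes of 4 guanylate-binding proteins fell, large GTPases of cell-autonomous immunity. Gbp2 had 2.43 and 1.65 RPKM in K754M EBs, against 16.8 and 22.5 RPKM in wild type EBs (-2.99 ± 0.23, limma adjusted p = 0.00681), Gbp3 had 0.203 and 0.173 RPKM in K754M EBs, against 4.23 and 4.17 RPKM in wild type EBs (-2.77 ± 0.19, limma adjusted p = 0.00435), and Gbp7 had 0.0718 and 0.0434 RPKM in K754M EBs, against 0.906 and 1.47 RPKM in wild type EBs (-1.58 ± 0.21, limma adjusted p = 0.0371). In each the groups were far apart, and the lowest wild type library was several times the highest K754M library. A row named Gbp1 had 1.86 and 1.57 RPKM in K754M EBs, against 15.7 and 20.6 RPKM in wild type EBs (-3.07 ± 0.21, limma adjusted p = 0.00435). This family also holds near-identical copies, so the share of each member is uncertain. The immunity-related GTPases Igtp and Irgm2, which lie side by side on chromosome 11, fell as well. Igtp had 0.652 and 0.516 RPKM in K754M EBs, against 3.71 and 5.36 RPKM in wild type EBs (-2.199 ± 0.21, limma adjusted p = 0.0154), and Irgm2 had 0.287 and 0.362 RPKM in K754M EBs, against 1.76 and 2.32 RPKM in wild type EBs (-1.62 ± 0.19, limma adjusted p = 0.0283).

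The window around the start site holds the best-known interferon element in several of these genes. Its core was searched as GAAA, any 2 bases and GAAA again, on both strands of the RefSeq windows (GRCm38.p6), 250 bases before to 50 bases after each start. The 3 promoters below are shown because their genes fell and hold the core, which is in capitals; each reads 5′ to 3′ on the strand of its gene, and in Gbp2 the core is on the other strand. A match is a description of the letters and not a measured binding site.

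Gbp2, chr3:142620413-142620712, plus strand: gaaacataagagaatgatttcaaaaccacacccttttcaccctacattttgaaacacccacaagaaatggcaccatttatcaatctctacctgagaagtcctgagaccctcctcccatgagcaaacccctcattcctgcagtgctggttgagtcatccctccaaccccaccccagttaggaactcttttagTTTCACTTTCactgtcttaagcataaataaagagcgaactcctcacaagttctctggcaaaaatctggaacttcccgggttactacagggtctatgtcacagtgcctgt

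Igtp, chr11:58199306-58199605, plus strand: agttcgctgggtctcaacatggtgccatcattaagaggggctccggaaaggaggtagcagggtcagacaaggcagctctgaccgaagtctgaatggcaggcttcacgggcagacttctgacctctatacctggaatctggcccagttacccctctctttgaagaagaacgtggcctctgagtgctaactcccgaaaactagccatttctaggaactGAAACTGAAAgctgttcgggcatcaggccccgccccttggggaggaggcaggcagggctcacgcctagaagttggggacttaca

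Isg15, chr4:156200769-156201068, minus strand, with 3 overlapping matches: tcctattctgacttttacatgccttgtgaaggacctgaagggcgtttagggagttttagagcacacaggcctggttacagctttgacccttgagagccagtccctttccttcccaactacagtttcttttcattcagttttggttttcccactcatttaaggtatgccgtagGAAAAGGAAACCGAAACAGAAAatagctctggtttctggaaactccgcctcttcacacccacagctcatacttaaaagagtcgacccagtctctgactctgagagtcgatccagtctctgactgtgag

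RefSeq windows were found by symbol for 41 of the 74 genes that fell, and 10 of these 41 (24.4%) held the core. They were Ddx58, Eif2ak2, Erap1, Gbp2, Gbp3, Gbp7, Igtp, Irgm2, Isg15 and Pcsk1. Among all 27025 genes with a window the share was 3.99%, among the 10583 tested genes it was 3.47%, and among the 19 rises with a window it was 1 gene, Tgfbi. The shorter core TTCNNNGAA, known from genes induced by interferon gamma and counted on both strands whether or not it overlapped the longer one, was in 7 of the 41 (17.1%) and in 9.55% of all genes with a window. Its share was 8.16% among the tested genes, and 3 of the 19 rises with a window held it (15.8%), close to the share in the falls. Of the falls, the windows of Psmb8, Ifi35 and Mgst1 held the shorter core alone, and those of Eif2ak2, Gbp7, Igtp and Irgm2 held both cores.

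Genes of the interferon-induced ADP-ribosylation and ubiquitin systems were lower too. Parp9 and Dtx3l share a divergent promoter and their proteins act as a pair. Parp9 had 1.04 and 1.42 RPKM in K754M EBs, against 7.31 and 8.96 RPKM in wild type EBs (-2.32 ± 0.19, limma adjusted p = 0.0104) and Dtx3l had 0.533 and 0.814 RPKM in K754M EBs, against 3.14 and 3.69 RPKM in wild type EBs (-1.75 ± 0.27, limma adjusted p = 0.04995). Parp12 had 0.688 and 0.899 RPKM in K754M EBs, against 3.14 and 3.29 RPKM in wild type EBs (-1.53 ± 0.16, limma adjusted p = 0.0219), and Parp10 and Parp14 had log2 changes of -1.32 ± 0.15 and -1.26 ± 0.19. Rnf213, a large ubiquitin ligase, had 1.26 and 1.38 RPKM in K754M EBs, against 4.35 and 6.68 RPKM in wild type EBs (-1.698 ± 0.22, limma adjusted p = 0.0371). Among RNA sensors and effectors, Ddx58 (RIG-I) had 1.56 and 1.67 RPKM in K754M EBs, against 3.77 and 3.899 RPKM in wild type EBs (-1.04 ± 0.15, limma adjusted p = 0.0438), and Oasl2 had 0.0143 and 0.01403 RPKM in K754M EBs, against 0.588 and 0.799 RPKM in wild type EBs (-1.21 ± 0.17, limma adjusted p = 0.0432). Isg15, a ubiquitin-like modifier, had 0.248 and 0.569 RPKM in K754M EBs, against 2.27 and 2.02 RPKM in wild type EBs (-1.56 ± 0.23, limma adjusted p = 0.0467), and Ifi35 had 1.06 and 0.821 RPKM in K754M EBs, against 3.99 and 3.83 RPKM in wild type EBs (-1.62 ± 0.21, limma adjusted p = 0.0371). Of 2 transcription factors of the interferon pathway, Irf9 had 4.37 and 5.204 RPKM in K754M EBs, against 4.58 and 5.21 RPKM in wild type EBs, and Irf1 had 14.8 and 14.6 RPKM in K754M EBs, against 17.03 and 22.4 RPKM in wild type EBs (-0.397 ± 0.15, limma adjusted p = 0.276); the groups were apart in Irf1 and overlapped in Irf9, and neither was called.

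**Figure D2:**
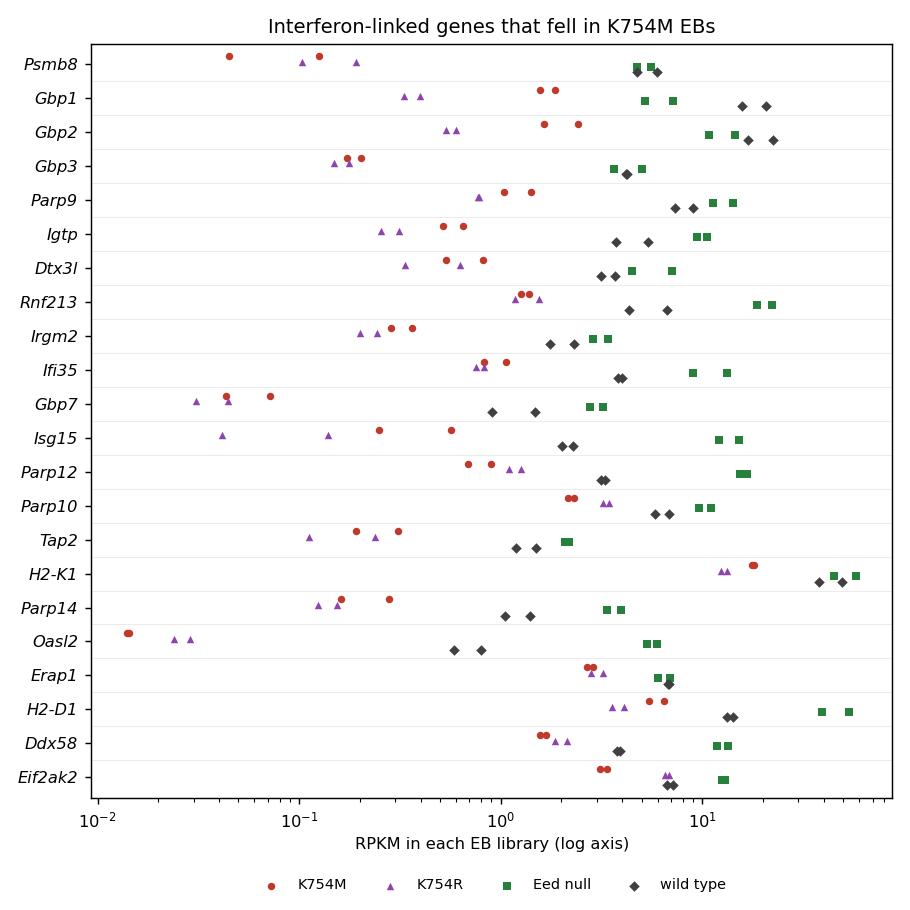
RPKM on a log axis of the 22 interferon-linked genes that fell, 1 row per gene, with 2 points per group for K754M (circles), K754R (triangles), Eed null (squares) and wild type EBs (diamonds). The K754M points lie left of the wild type points in every row, as the choice of genes fixes; the K754R and Eed null libraries entered that choice through the spread of the fit, not through the difference.

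In 21 of these 22 genes both K754R libraries were below both wild type libraries. In all 22 both Eed null libraries were above both K754M libraries. Both counts share libraries with the choice of genes, and the matching shares over all tested genes were not counted. K754R and Eed null EBs were not tested against each other. Psmb8 was 0.125 and 0.0449 RPKM in K754M, 0.191 and 0.103 RPKM in K754R and 5.54 and 4.76 RPKM in Eed null EBs. Isg15 was 0.248 and 0.569, 0.138 and 0.0414 and 15.2 and 12.1 RPKM in the same groups. Tested directly, in a comparison that shares the K754M libraries and the spread over all 8 EB libraries with the choice of genes, 2 of the 22 were higher in K754M than in K754R (Gbp1, 1.35 ± 0.21, limma adjusted p = 0.0204, and Gbp2, 1.23 ± 0.23, limma adjusted p = 0.0363) and 1 was lower (Eif2ak2, -0.95 ± 0.12, limma adjusted p = 0.0128), beside 3.62% of all tested genes. All 22 were lower in K754M than in Eed null EBs, beside 18.0% of all tested genes. The 3 comparisons with wild type share the same 2 wild type libraries, so the median log2 changes of the 19 list genes, -0.50 in K754M, -1.09 in K754R and 1.08 in Eed null EBs, are not independent.

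Many of the falls lay together on chromosomes. Over genes with at least 1 RPKM, the median log2 change of chromosome 11 was -0.40, with 91.8% of its 1038 genes below 0, while the autosomes other than 11 and 17 had medians from 0.00 to 0.08. Chromosome 11 held 22 of the 74 falls, 1.38% of its 1592 tested genes, beside 0.383% of all tested genes that fell. Set against K754R EBs the chromosome 11 median of K754M was -0.02, and against Eed null EBs -0.08. K754R and Eed null EBs had medians of -0.37 and -0.33 against the same 2 wild type libraries. Between K754M and wild type stem cells, which share no library with the EBs, it was also -0.40. K754R and Eed null stem cells had chromosome 11 medians of -0.42 and -0.35 against the same wild type stem cells. Of the 22 falls on chromosome 11, 2 were lower and 1 higher in K754M than in K754R EBs and 19 did not differ by the test.

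**Figure D3:**
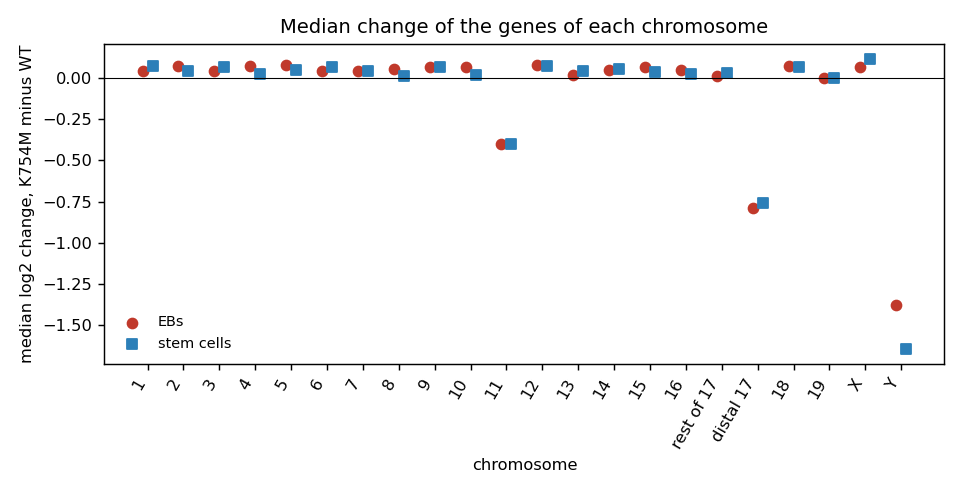
Median log2 change, K754M minus wild type, over the genes of each chromosome with at least 1 RPKM, for EBs (circles) and stem cells (squares); chromosome 17 is split before Slc30a6. Chromosome 11, the end of 17 and Y lie below the rest in both stages.

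The genes on chromosome 11 that fell had varied roles. Ube2b, a ubiquitin-conjugating enzyme of DNA damage tolerance, had 42.4 and 46.3 RPKM in K754M EBs, against 71.8 and 79.9 RPKM in wild type EBs (-0.77 ± 0.11, limma adjusted p = 0.0428). Rnf130, a membrane ubiquitin ligase, had 14.01 and 13.95 RPKM in K754M EBs, against 30.2 and 35.6 RPKM in wild type EBs (-1.200 ± 0.12, limma adjusted p = 0.0189). Selm, a selenoprotein of the endoplasmic reticulum, had 4.95 and 4.76 RPKM in K754M EBs, against 11.999 and 15.9 RPKM in wild type EBs (-1.42 ± 0.16, limma adjusted p = 0.0256). The histone gene Hist3h2ba had 25.9 and 25.8 RPKM in K754M EBs, against 68.6 and 72.4 RPKM in wild type EBs (-1.43 ± 0.15, limma adjusted p = 0.0219). K754R EBs were near the K754M level in Ube2b and Selm. They lay between the groups in Hist3h2ba, with 39.1 and 40.04 RPKM, and close to wild type in Rnf130, with 28.3 and 26.1 RPKM. These 4 genes were picked after their values were seen.

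A second block ran from Slc30a6 to the end of chromosome 17, a boundary set after the values were seen. It held 85 tested genes, of which 12 fell and none rose; without wild type replicate 1 the falls were 1, and without any one of the other 3 libraries 0. Of its 61 genes with at least 1 RPKM, 55 had a log2 change below 0 and 54 had both K754M libraries below both wild type libraries, beside 23.7% of all tested genes. Their median was -0.79, a ratio of 0.578, with quartiles of -0.97 and -0.58. The last genes outside the block were Memo1 (0.25), Dpy30 (0.11) and Spast (0.09), and the first inside were Slc30a6 (-0.72), Yipf4 (-0.99) and Birc6 (-0.65). Unlike chromosome 11, the block separated K754M from K754R, in which its median change from wild type was 0.10. Tested directly, 35 of the 61 genes with at least 1 RPKM were lower in K754M than in K754R EBs and none higher. Over all tested genes 1.72% were lower.

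The members of the block do unrelated things. Pigf, which adds ethanolamine phosphate to GPI anchors, had 10.3 and 10.9 RPKM in K754M EBs, against 33.4 and 32.5 RPKM in wild type EBs (-1.59 ± 0.11, limma adjusted p = 0.00435), and 19.3 and 19.6 RPKM in K754R EBs. Epcam, the epithelial adhesion molecule, had 46.95 and 46.4 RPKM in K754M EBs, against 115 and 94.8 RPKM in wild type EBs (-1.15 ± 0.12, limma adjusted p = 0.0219). Msh6, a mismatch repair protein, had 28.7 and 31.3 RPKM in K754M EBs, against 54.2 and 60.7 RPKM in wild type EBs (-0.93 ± 0.13, limma adjusted p = 0.0428). In these 3 genes each K754M library was well below each wild type library, which the choice of called genes favours. Eif2ak2, the interferon-induced kinase PKR, is also a member, at 3.35 and 3.11 RPKM in K754M EBs, against 6.71 and 7.13 RPKM in wild type EBs (-0.99 ± 0.12, limma adjusted p = 0.0355). Another 7 falls, Dync2li1, Cript, Srbd1, Yipf4, Cebpz, Atl2 and Dhx57, had log2 changes between -1.26 and -0.87.

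The same block was lower in stem cells, where none of the libraries were shared. Of 60 members measured there, 53 were below 0 and 45 had both K754M libraries below both wild type libraries, beside 16.6% of all genes, with a median of -0.76. Msh6 had 139.9 and 167 RPKM in K754M stem cells, against 345 and 350.4 RPKM in wild type stem cells (stem cell log2 change -1.18), and Epcam had 11.8 and 7.303 RPKM in K754M stem cells, against 47.2 and 31.8 RPKM in wild type stem cells (-2.003). Neither passed the test there (0.0753 and 0.0987, limma adjusted p), as no gene did in stem cells.

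**Figure D4:**
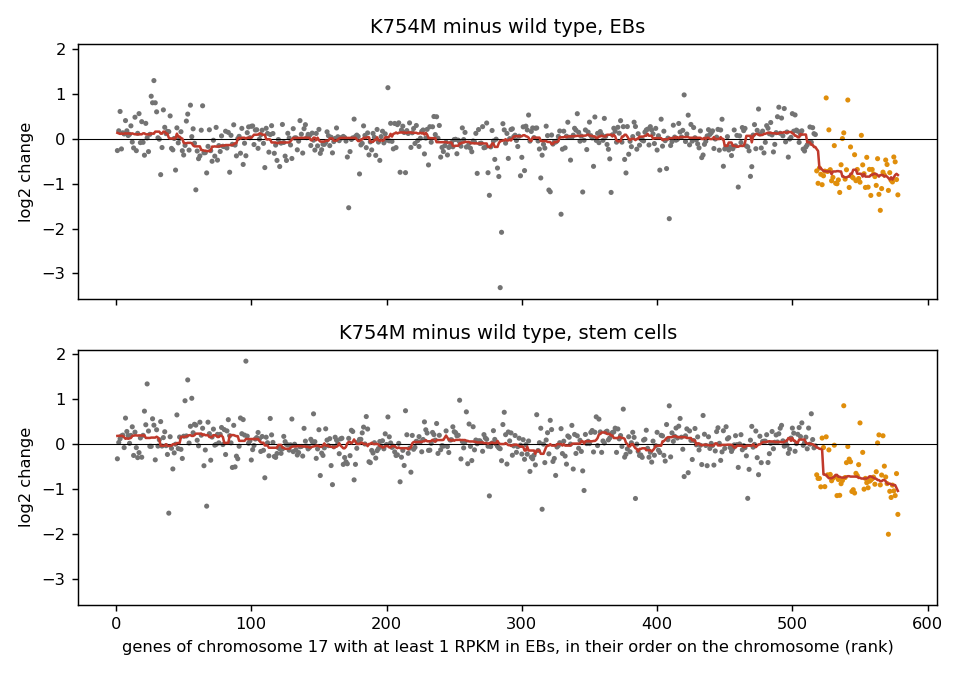
Log2 change, K754M minus wild type, of the 578 genes of chromosome 17 with at least 1 RPKM, in their order on the chromosome, in EBs (top) and stem cells (bottom); the red line is the running median of 21 genes. Orange points are the 61 genes from Slc30a6 to the end, where the running median steps down in both stages.

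Y-linked genes fell as well, 3 of the 6 tested, beside 0.383% of all tested genes. Eif2s3y, a translation initiation subunit, had 5.65 and 5.72 RPKM in K754M EBs, against 24.7 and 25.1 RPKM in wild type EBs (-2.04 ± 0.10, limma adjusted p = 0.00236). The demethylase gene Uty had 3.17 and 3.64 RPKM in K754M EBs, against 9.54 and 9.73 RPKM in wild type EBs (-1.38 ± 0.14, limma adjusted p = 0.0218) and the RNA helicase gene Ddx3y had 7.01 and 5.54 RPKM in K754M EBs, against 16.7 and 16.7 RPKM in wild type EBs (-1.35 ± 0.14, limma adjusted p = 0.0219). In stem cells Eif2s3y had 8.17 and 6.83 RPKM in K754M stem cells, against 55.5 and 46.9 RPKM in wild type stem cells. All 3 were also lower in K754M than in K754R EBs (-1.396, -1.19 and -0.76). DNA copy number was not measured, and fewer copies, fewer cells that carry them and less RNA per copy cannot be told apart in these bulk samples. Chromosome 11 was lower in K754M, K754R and Eed null EBs alike than in wild type EBs. For it, a higher level in the wild type line was not told apart from a lower level in the others. When the genes of chromosomes 11, 17 and Y were left out and the rest fitted alone, 5 genes rose and 11 fell, all among the 109. They included Gbp1, Gbp2, Gbp3, Parp9, Parp10, Parp12 and Nxf3 among the falls and Triml2, Pdlim3, Ctla2a and Ino80c among the rises.

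The falls named next were not among the interferon-linked genes. Nxf3, an X-linked mRNA export factor, had 1.16 and 1.38 RPKM in K754M EBs, against 5.91 and 6.201 RPKM in wild type EBs (-1.89 ± 0.17, limma adjusted p = 0.0129), and the K754R libraries were at the wild type level with 5.72 and 6.11 RPKM. Pcsk1, a prohormone convertase, had 0.272 and 0.362 RPKM in K754M EBs, against 1.81 and 2.05 RPKM in wild type EBs (-1.57 ± 0.17, limma adjusted p = 0.0219). The imprinted genes Grb10, an inhibitor of growth factor receptors on chromosome 11, and Phlda2, a placental growth restrictor, fell. Grb10 had 1.402 and 1.38 RPKM in K754M EBs, against 4.37 and 3.51 RPKM in wild type EBs (-1.22 ± 0.16, limma adjusted p = 0.0371), while K754R EBs had 37.4 and 44.01 RPKM. Phlda2 had 15.7 and 14.9 RPKM in K754M EBs, against 23.9 and 25.8 RPKM in wild type EBs (-0.68 ± 0.10, limma adjusted p = 0.04995). Of the 35 tested genes of the imprinted list these 2 fell and 1, Cdkn1c, rose, with a median of 0.24. Over all tested genes 0.383% fell and 0.181% rose. Igf2, the imprinted growth factor, was 12.7 and 11.7 RPKM in K754M EBs and 11.3 and 9.03 RPKM in wild type EBs and was not called (0.26 ± 0.13, limma adjusted p = 0.418).

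Of 1636 tested small RNA rows 15 fell and 1 rose, beside 0.383% and 0.181% of all tested genes. They made 15 of the 74 falls and 1 of the 35 rises. Most were small nucleolar and spliceosomal RNAs, such as a row named U5 and 3 rows named U2, and 7 of the 15 lay on chromosome 11. Such rows often share sequence with copies elsewhere, and the recovery of short RNAs varies with library preparation, so their levels are uncertain. The hairpins of the Mir302 cluster, which stem and epiblast cells express and which lies inside the Larp7 gene, were chosen after their values were seen. Of the 5, Mir302c fell and the other 4 were not called. The seed, bases 2 to 8, is in capitals below, to show which members share it.

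mmu-miR-302b-3p: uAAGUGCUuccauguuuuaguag

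mmu-miR-302c-3p: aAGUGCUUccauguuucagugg

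mmu-miR-302d-3p: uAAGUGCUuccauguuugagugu

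mmu-miR-367-3p: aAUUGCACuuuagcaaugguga

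The 3p arms of 302b and 302d have the same seed, that of 302c is shifted by 1 base in RefSeq's annotation, and miR-367 has another seed. Mir302c had 11.1 and 10.1 RPKM in K754M EBs, against 28.4 and 31.1 RPKM in wild type EBs (-1.45 ± 0.13, limma adjusted p = 0.014). Mir302a had 13.7 and 16.2 RPKM in K754M EBs, against 32.2 and 30.2 RPKM in wild type EBs (-1.04 ± 0.24), and Mir302b had 14.1 and 13.4 RPKM in K754M EBs, against 26.5 and 26.9 RPKM in wild type EBs (-0.93 ± 0.28). Mir302d and Mir367 had log2 changes of -0.704 ± 0.37 and -1.43 ± 0.81. In all 5 both K754M libraries were below both wild type libraries, beside 23.7% of all tested genes. The 5 are neighbours in the same cluster, so they are not independent observations. Larp7, the host gene on the opposite strand, had 61.7 and 59.6 RPKM in K754M EBs, against 57.7 and 58.9 RPKM in wild type EBs, a change of 0.06 ± 0.11. These are reads over the hairpin, not mature microRNA levels, and a hairpin is short, so each value rests on few reads. In K754R EBs Mir302c was 3.63 and 4.19 RPKM and in Eed null EBs 4.11 and 3.85 RPKM.

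Among the 35 rises were genes of contractile and mesenchymal cells, of early embryos and of placenta. Acta2, smooth muscle actin, had the largest change, with 20.9 and 14.3 RPKM in K754M EBs, against 3.74 and 2.25 RPKM in wild type EBs (2.38 ± 0.33, limma adjusted p = 0.0427). Tgfbi, a matrix protein induced by TGF-beta, had 3.08 and 1.95 RPKM in K754M EBs, against 0.497 and 0.368 RPKM in wild type EBs (1.67 ± 0.25, limma adjusted p = 0.0476). Pdlim3, a Z-disc protein of muscle, had 69.1 and 51.5 RPKM in K754M EBs, against 22.3 and 21.7 RPKM in wild type EBs (1.42 ± 0.16, limma adjusted p = 0.0247). Vim, the intermediate filament of mesenchyme, had 315 and 322 RPKM in K754M EBs, against 179.7 and 158 RPKM in wild type EBs (0.92 ± 0.12, limma adjusted p = 0.0373). In these 4 the lower K754M library was above the higher wild type library, which the choice of called genes favours. The 2 K754M libraries of Acta2, Tgfbi and Pdlim3 differed more from each other than those of Vim. Tagln, another smooth muscle gene, had 103 and 67.7 RPKM in K754M EBs, against 34.3 and 20.4 RPKM in wild type EBs, a change as large as theirs that was not called (1.64 ± 0.36, limma adjusted p = 0.104). In the cardiac and lateral mesoderm list 1 of 24 tested genes rose (Acta2) and none fell (median 0.28). The groups were apart and higher in K754M in 11 and apart and lower in 3, beside 26.0% and 23.7% of all tested genes.

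Tek, the angiopoietin receptor of endothelium, had 1.73 and 2.07 RPKM in K754M EBs, against 0.643 and 0.521 RPKM in wild type EBs (1.15 ± 0.18, limma adjusted p = 0.04995), and Cxcr7, a scavenging chemokine receptor, had 10.8 and 9.72 RPKM in K754M EBs, against 4.79 and 3.64 RPKM in wild type EBs (1.198 ± 0.17, limma adjusted p = 0.0432). Tmem119, a membrane protein known in bone and microglia, had 13.2 and 10.3 RPKM in K754M EBs, against 3.82 and 3.17 RPKM in wild type EBs (1.61 ± 0.23, limma adjusted p = 0.0438), and Ctla2a, a cysteine protease inhibitor, had 8.58 and 8.73 RPKM in K754M EBs, against 2.69 and 1.91 RPKM in wild type EBs (1.72 ± 0.18, limma adjusted p = 0.0218). Of the 23 tested blood and endothelium genes Tek alone was called. The median was 0.65, and 15 were apart and higher and 4 apart and lower in K754M, beside 26.0% and 23.7% of all tested genes. The blood factor Gata1 had 0.244 and 0.568 RPKM in K754M EBs, against 1.38 and 0.872 RPKM in wild type EBs and was lower in both K754M libraries without a call. The embryonic globin Hbb-bh1 differed more between the wild type libraries, 17.5 and 1.63 RPKM, than between the groups.

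Markers of fibroblasts, the cells of the feeder layer, were also mostly higher. Of the 17 tested fibroblast markers none was called, 14 were above 0 and the median change was 0.67. Their summed level was 19.5 and 16.6 RPKM in K754M EBs, against 10.2 and 6.21 RPKM in wild type EBs. The collagen Col1a1 had 2.17 and 1.54 RPKM in K754M EBs, against 0.591 and 0.427 RPKM in wild type EBs (1.21 ± 0.20, limma adjusted p = 0.063), while Col1a2 had 0.409 and 0.449 RPKM in K754M EBs, against 0.465 and 0.482 RPKM in wild type EBs and Postn had 0.749 and 0.303 RPKM in K754M EBs, against 0.497 and 0.1802 RPKM in wild type EBs, with no such difference. Fap, Fbln5 and Lum had under 0.05 RPKM in each of the 4 libraries and were not tested. EBs also make fibroblast-like mesoderm, and the part of feeder RNA in the rises was not tested.

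Another set of rises consists of genes that stem cells or early embryos use. Dppa4, a chromatin protein of pluripotent cells, had 18.5 and 19.6 RPKM in K754M EBs, against 7.13 and 8.17 RPKM in wild type EBs (1.26 ± 0.17, limma adjusted p = 0.0396). Triml1 and Triml2, neighbouring genes active in early embryos, had 2.45 and 2.21 RPKM in K754M EBs, against 0.361 and 0.625 RPKM in wild type EBs (1.52 ± 0.20, limma adjusted p = 0.0371) and, for Triml2, 4.82 and 6.4001 RPKM in K754M EBs, against 1.53 and 1.77 RPKM in wild type EBs (1.496 ± 0.17, limma adjusted p = 0.0256). Psma8, a proteasome subunit of germ cells, had 1.05 and 1.68 RPKM in K754M EBs, against 0.137 and 0.169 RPKM in wild type EBs (1.49 ± 0.21, limma adjusted p = 0.0432), and Dusp27 had 2.88 and 2.58 RPKM in K754M EBs, against 0.853 and 0.458 RPKM in wild type EBs (1.502 ± 0.20, limma adjusted p = 0.0396). In the stem cell table, which was scaled separately, Triml2 had 203 and 225 RPKM in K754M stem cells, against 201 and 242 RPKM in wild type stem cells, and Dppa4 had 20.8 and 37.8 RPKM in K754M stem cells, against 20.6 and 31.02 RPKM in wild type stem cells, so Triml2 was far higher there than in EBs and Dppa4 was much closer. Lefty1, an inhibitor of Nodal signalling, had 8.002 and 8.66 RPKM in K754M EBs, against 3.33 and 1.704 RPKM in wild type EBs (1.603 ± 0.24, limma adjusted p = 0.0491). In all of these the groups were apart, which the choice of called genes favours. Of the 18 naive pluripotency genes 1 rose (Dppa4), none fell, and the median was 0.51, with 13 apart and higher and 3 apart and lower in K754M, beside 26.0% and 23.7% of all tested genes.

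Several of those genes had large changes that did not pass. Zfp42 (Rex1) had 24.5 and 26.3 RPKM in K754M EBs, against 9.08 and 6.797 RPKM in wild type EBs (1.63 ± 0.28, limma adjusted p = 0.0651), and Esrrb had 1.18 and 1.496 RPKM in K754M EBs, against 0.252 and 0.407 RPKM in wild type EBs (1.15 ± 0.33, limma adjusted p = 0.173). Nanog had 58.7 and 62.1 RPKM in K754M EBs, against 36.7 and 58.97 RPKM in wild type EBs, so that the second wild type library reached the K754M level. Klf4 and Klf5 had log2 changes of -0.39 ± 0.27 and -0.49 ± 0.33, also without a call. The core factor Pou5f1 (Oct4) had 51.5 and 52.3 RPKM in K754M EBs, against 47.9 and 50.2 RPKM in wild type EBs (0.08 ± 0.19, limma adjusted p = 0.887). Zfp42 and Esrrb thus lay far apart between the groups and Pou5f1 close together.

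**Figure D5:**
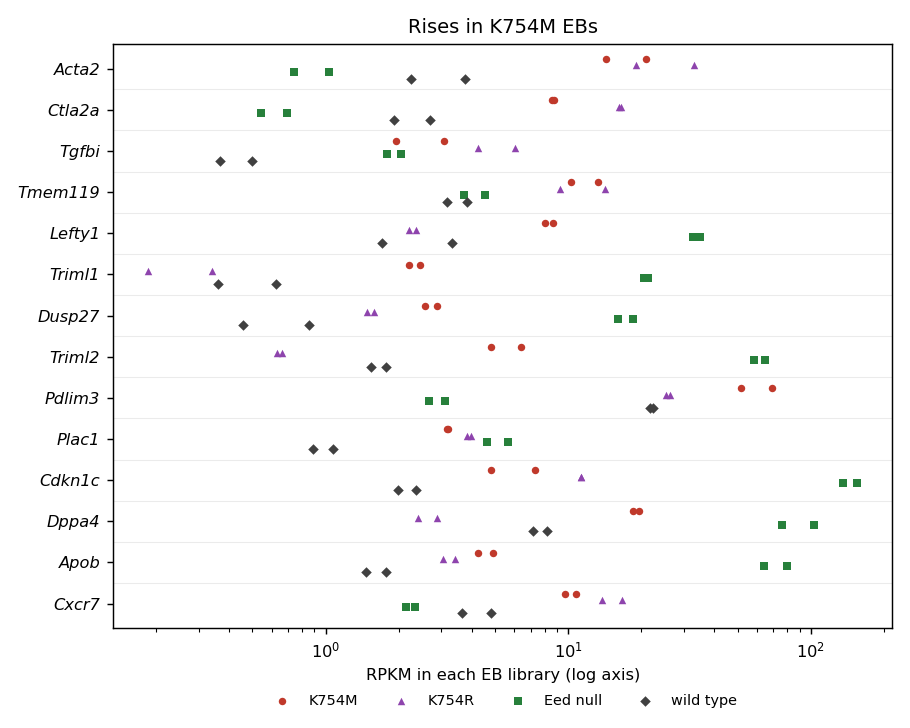
RPKM on a log axis of 14 of the largest rises with at least 2 RPKM in K754M EBs, 1 row per gene, with 2 points per group for K754M (circles), K754R (triangles), Eed null (squares) and wild type EBs (diamonds). The K754M points lie right of the wild type points in every row, as the choice of genes fixes; in Triml1, Triml2 and Dppa4 the K754R points are below wild type and the Eed null points above K754M.

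Placental and endodermal genes gave single calls. Plac1, an X-linked placental gene, had 3.19 and 3.15 RPKM in K754M EBs, against 1.07 and 0.887 RPKM in wild type EBs (1.32 ± 0.16, limma adjusted p = 0.0355). Of the 15 tested genes of the trophoblast (placental) list it alone was called. The median of that list was 0.45. In it 10 genes were apart and higher and 1 apart and lower in K754M, beside 26.0% and 23.7% of all tested genes. Cdkn1c, the imprinted inhibitor of cyclin-dependent kinases, had 7.299 and 4.81 RPKM in K754M EBs, against 2.37 and 1.99 RPKM in wild type EBs (1.27 ± 0.19, limma adjusted p = 0.0491). Apob, the apolipoprotein that visceral endoderm secretes, had 4.89 and 4.23 RPKM in K754M EBs, against 1.77 and 1.47 RPKM in wild type EBs (1.26 ± 0.16, limma adjusted p = 0.0371), but it stood alone. Of the 19 visceral endoderm genes none other was called, and the median was 0.08. Afp had 4.43 and 1.98 RPKM in K754M EBs, against 1.84 and 1.08 RPKM in wild type EBs and Ttr had 13.2 and 8.59 RPKM in K754M EBs, against 19.9 and 12.7 RPKM in wild type EBs; the groups were narrowly apart in Afp and overlapped in Ttr, and neither was called (0.285 and 0.427, limma adjusted p). The clone rows Gm13007 and Gm14401 rose, with log2 changes of 1.81 ± 0.21 and 1.43 ± 0.19, and their products are not annotated in the files.

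Most lists of developmental genes had no call. None of 22 primitive streak and nascent mesoderm genes, 10 primed epiblast genes, 9 definitive endoderm genes, 19 neuroectoderm genes or 30 Hox genes passed. Their medians were 0.03, 0.09, -0.15, 0.08 and 0.05. Eomes had 35.4 and 34.4 RPKM in K754M EBs, against 20.4 and 17.9 RPKM in wild type EBs, and Mesp1, which marks nascent cardiac mesoderm, had 16.8 and 21.2 RPKM in K754M EBs, against 32.2 and 60.9 RPKM in wild type EBs (-1.21 ± 0.31, limma adjusted p = 0.137). Msgn1, a presomitic mesoderm factor, had 0.935 and 1.51 RPKM in K754M EBs, against 5.99 and 3.52 RPKM in wild type EBs (-1.59 ± 0.32, limma adjusted p = 0.0867). Mixl1 went the other way with 16.1 and 14.6 RPKM in K754M EBs, against 8.02 and 7.05 RPKM in wild type EBs (0.98 ± 0.19, limma adjusted p = 0.0839). Foxa2 had 8.27 and 8.79 RPKM in K754M EBs, against 9.72 and 9.11 RPKM in wild type EBs. The streak list thus held changes of both signs that did not pass the test, 10 members apart and higher and 6 apart and lower, beside 26.0% and 23.7% of all tested genes.

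All 24 genes of glycolysis and hypoxia had a log2 change below 0, with a median of -0.61, and none was called. The replicates differed within both groups. Bnip3, a mitophagy receptor induced by low oxygen, had 5.95 and 33.3 RPKM in K754M EBs, against 33.8 and 85.04 RPKM in wild type EBs, and the glycolytic gene Pgk1 had 67.3 and 136 RPKM in K754M EBs, against 146 and 299 RPKM in wild type EBs. In both genes replicate 2 was above replicate 1 in each group, and the groups were apart in 5 of the 24, beside 23.7% of all tested genes that were apart and lower. The summed level of the list was 3716 and 5311 RPKM in K754M EBs and 4950 and 7839 RPKM in wild type EBs. K754M replicate 2 lay above wild type replicate 1, so the groups overlapped in this sum.

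To ask where methionine differs from arginine at the same lysine, K754M EBs were compared directly with K754R EBs. Here 698 genes were called (3.62%), 367 higher (1.9%) and 331 lower (1.72%) in K754M, more than between K754M and wild type. The calls were 21 without K754M replicate 1, 37 without K754M replicate 2, 64 without K754R replicate 1 and 30 without K754R replicate 2. The median log2 change of chromosome 14 was -0.37 in this comparison. Against wild type EBs it was 0.05 in K754M and 0.40 in K754R EBs. The part of chromosome 14 in the calls was not tested. Of the 35 rises over wild type, 11 were also higher and 4 lower in K754M than in K754R, and of the 74 falls 20 were also lower and 4 higher; both comparisons use the same K754M libraries, so these counts are not independent.

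Pluripotency genes were higher in K754M than in K754R EBs. They were called in 11 of 18 naive genes and 2 of 5 core genes, none lower, beside 1.9% of all tested genes that were higher. Against wild type EBs the median of the naive list was 0.51 in K754M and -0.84 in K754R EBs. Pou5f1 changed by 0.08 in K754M and by -3.34 in K754R EBs against wild type. Pou5f1 had 51.5 and 52.3 RPKM in K754M EBs, against 5.61 and 3.44 RPKM in K754R EBs (3.42 ± 0.19, limma adjusted p = 0.00101), Nanog had 58.7 and 62.1 RPKM in K754M EBs, against 6.39 and 5.39 RPKM in K754R EBs (3.26 ± 0.21, limma adjusted p = 0.00154), and Zfp42 had 24.5 and 26.3 RPKM in K754M EBs, against 3.21 and 1.69 RPKM in K754R EBs (3.18 ± 0.28, limma adjusted p = 0.0046). The 2 pairs of libraries were far apart in each. Primitive streak genes were higher too, in 9 of 22 and lower in none, beside 1.9% and 1.72% of all tested genes. Against wild type EBs the median of the streak list was 0.03 in K754M and -0.31 in K754R EBs. Brachyury (T) had 46.1 and 51.8 RPKM in K754M EBs, against 11.3 and 9.71 RPKM in K754R EBs (2.17 ± 0.16, limma adjusted p = 0.00209), and Mixl1 had 16.1 and 14.6 RPKM in K754M EBs, against 3.55 and 3.91 RPKM in K754R EBs (1.91 ± 0.19, limma adjusted p = 0.00665). The Nodal co-receptor Tdgf1, named after its values were seen, had 142 and 151 RPKM in K754M EBs, against 24.8 and 22.8 RPKM in K754R EBs (2.597 ± 0.15, limma adjusted p = 0.00101), and Lefty2 had 9.08 and 10.4 RPKM in K754M EBs, against 1.37 and 1.09 RPKM in K754R EBs. Germline genes were higher in 7 of 23, beside 1.9% of all tested genes. Among them was Ddx4, the germ cell helicase, with 1.34 and 1.74 RPKM in K754M EBs, against 0.135 and 0.0994 RPKM in K754R EBs (1.72 ± 0.24, limma adjusted p = 0.016).

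In the cardiac and lateral list 5 of 24 genes were lower in K754M than in K754R EBs and 2 were higher, beside 1.72% and 1.9% of all tested genes, and the other 17 were not called. Hand2 had 6.58 and 6.53 RPKM in K754M EBs, against 19.4 and 22.5 RPKM in K754R EBs (-1.600 ± 0.22, limma adjusted p = 0.0157), Isl1, a factor of the second heart field, had 2.38 and 2.902 RPKM in K754M EBs, against 6.301 and 7.15 RPKM in K754R EBs (-1.204 ± 0.17, limma adjusted p = 0.0163), and Mef2c had 0.282 and 0.568 RPKM in K754M EBs, against 3.03 and 4.33 RPKM in K754R EBs (-2.18 ± 0.31, limma adjusted p = 0.0172). Tagln and Actc1 were the 2 higher genes. Fibroblast markers were lower in 5 of 17, led by Postn with 0.749 and 0.303 RPKM in K754M EBs, against 12.2 and 6.99 RPKM in K754R EBs (-3.28 ± 0.35, limma adjusted p = 0.00828). The imprinted genes Grb10 and Igf2 were lower too, Grb10 with 1.402 and 1.38 RPKM in K754M EBs, against 37.4 and 44.01 RPKM in K754R EBs (-4.44 ± 0.16, limma adjusted p = 0.000192) and Igf2 with 12.7 and 11.7 RPKM in K754M EBs, against 65.6 and 59.5 RPKM in K754R EBs (-2.31 ± 0.13, limma adjusted p = 0.00101). Acta2 did not differ by the test (20.9 and 14.3 RPKM in K754M EBs, against 33.1 and 18.97 RPKM in K754R EBs; -0.53 ± 0.33, limma adjusted p = 0.455).

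Against Eed null EBs, which lack PRC2 activity, 5241 genes were called (27.2%), 1770 higher (9.17%) and 3471 lower (18.0%) in K754M. The split depends on the scaling, at 3261 higher and 2461 lower with each library centred on its median and 2801 higher and 2872 lower after quantile normalization. Without K754M replicate 1 the calls were 2957 and without K754M replicate 2 they were 2847. The median log2 change of chromosome 8 was 0.42 in this comparison. Against wild type EBs it was 0.06 in K754M and -0.37 in Eed null EBs. The part of chromosome 8 in the calls was not tested. Of the 18 naive pluripotency genes 17 were lower in K754M, of 23 germline genes 21, of 30 Hox genes 21 and of 19 visceral endoderm genes 16, with none, none, none and 1 higher. Zfp42 had 24.5 and 26.3 RPKM in K754M EBs, against 274 and 194 RPKM in Eed null EBs (-3.16 ± 0.28, limma adjusted p = 0.000269), and Cdkn1c had 7.299 and 4.81 RPKM in K754M EBs, against 155 and 135 RPKM in Eed null EBs (-4.496 ± 0.19, limma adjusted p = 2.7e-05). In the mesoderm lists more genes were higher, 12 of 24 cardiac and lateral genes with none lower and 13 of 22 streak genes with 3 lower. Mixl1 had 16.1 and 14.6 RPKM in K754M EBs, against 0.764 and 1.299 RPKM in Eed null EBs (3.39 ± 0.19, limma adjusted p = 7.1e-05), and Pdlim3 had 69.1 and 51.5 RPKM in K754M EBs, against 3.12 and 2.66 RPKM in Eed null EBs (4.15 ± 0.16, limma adjusted p = 2.38e-05).

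The same edit was then followed in undifferentiated stem cells, where no gene was called (0.0% of 21012; limma, 2103 at an unadjusted p below 0.05, and 0 also with the 4 libraries fitted alone). Of the 74 falls in EBs, 71 could be measured there, 57 had the same sign, and 36 had both K754M libraries below both wild type libraries. The matching shares over all 17757 genes measured in both stages were 55.8% of the same sign and 21.9% apart in the same direction. For falls on chromosome 11, distal 17 and Y it was 25 of 35, against 48.9% of all genes in those places, and for falls elsewhere 11 of 36, against 19.3%. Of the 35 rises 34 could be measured, 25 had the same sign and 7 were apart in the same direction.

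Of the 22 interferon-linked genes that fell in EBs, 12 had both K754M libraries below both wild type libraries in stem cells and 2, Gbp2 and Irgm2, had both above, beside 16.6% and 19.3% of all genes. Among the 12, Igtp, Rnf213 and Ifi35 lie on chromosome 11 and Eif2ak2 in the block at the end of chromosome 17. In those places and Y together, 48.9% of all genes were apart in the direction of their EB change. Over the interferon list 5 were apart and lower and 4 apart and higher, with a median of -0.05. Psmb8 had 0.0872 and 0.0957 RPKM in K754M stem cells, against 0.132 and 0.134 RPKM in wild type stem cells and Gbp3 had 0 and 0.09705 RPKM in K754M stem cells, against 0 and 0.0436 RPKM in wild type stem cells, near 0 in both. Of the 12, Rnf213 had 14.6 and 11.5 RPKM in K754M stem cells, against 23.8 and 21.8 RPKM in wild type stem cells (log2 change -0.79), and H2-K1 had 13.1 and 7.34 RPKM in K754M stem cells, against 27.9 and 17.9 RPKM in wild type stem cells (-1.15). Acta2 and Tgfbi, which rose in EBs, stood higher in the stem cell table, which was scaled separately, Acta2 with 57.9 and 229 RPKM in K754M stem cells, against 63.5 and 114 RPKM in wild type stem cells, beside feeder markers such as Col1a1 with 24.7 and 55.2 RPKM in K754M stem cells, against 24.4 and 31.9 RPKM in wild type stem cells. The part of feeder RNA in these stem cell values was not tested. Pdlim3, Plac1 and Apob were at or under 0.5 RPKM in all 4 stem cell libraries.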

How the data were processed

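Total RNA depleted of ribosomal RNA was sequenced, and the authors deposited 1 table of RPKM per gene for EBs and 1 for stem cells, each scaled separately. CASAVA 1.7, STAR and mm9 are listed, per the submitters' processing notes, with no role or order. How reads were assigned to genes, with which annotation and whether by strand, is not given in the sources used here, so overlapping and antisense genes are uncertain. All values were used as deposited RPKM, since RPKM are not counts, and no count model was run.

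Values were analysed as log2(RPKM + 0.5) with limma 3.58.1 (R 4.3.3), with a variance trend on mean expression and moderated variances. The 8 CJ7 EB libraries were fitted together with 1 mean per group, and the 8 stem cell libraries in another fit. Genes with at least 0.25 RPKM in 2 libraries of the fit were tested, 2-sided, with Benjamini-Hochberg adjustment. The pipeline was tested on simulated data. Summaries and figures were made in Python 3.11.15 with pandas 2.3.3, numpy 2.4.6 and matplotlib 3.10.9. Chromosomes come from GENCODE M21, matched by identifier for 32860 of 37583 genes, and 3730 genes share a name with another. Depth was estimated in EBs from the RPKM of 1 read and M21 exon lengths, which may differ from the lengths the authors used.

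Named are the Elongin and PRC2 genes, the 15 largest called rises and falls with a group mean of at least 2 RPKM, up to 4 called members of a list in each direction, defining markers, and at most 2 clone or small RNA rows in each direction; any other gene was named after its values were seen. The comparison, the 37 lists and the rule were chosen with earlier results of these data known. The same replicate number in 2 groups was not taken as a pairing. Alternatives were the pseudocount, the filter, the libraries fitted, the scaling, the variance trend, the block on replicate number and leaving out each library. The CCE libraries were not analysed here, and a few genes are not reported here.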

Additional observations from a re-analysis of the deposited data

Results flagged for a closer look

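In 6 genes called in EBs the K754M libraries lay on the opposite side of wild type in stem cells, a difference between stages that was not tested. Gbp2, Irgm2, Klk8 and the small nucleolar RNA row SNORA55, lower in K754M EBs, had changes of 0.40, 0.11, 0.77 and 0.30 there. Bcar3, higher in K754M EBs, had a change of -0.50 there. Gbp2 had 0.356 and 0.122 RPKM in K754M stem cells, against 0 and 0.1097 RPKM in wild type stem cells, and Irgm2 had 1.05 and 0.978 RPKM in K754M stem cells, against 0.832 and 0.973 RPKM in wild type stem cells.

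Of the 109 called genes, 39 (15 rises and 24 falls) differed between the 2 substitutions by the direct test, K754M minus K754R EBs, in which the wild type libraries cancel (limma adjusted p below 0.05 in each; log2 differences in parentheses). Grb10 differed most, being lower in K754M (-4.44). Of the block at the end of chromosome 17, Dhx57 (-1.25), Eif2ak2 (-0.95), Srbd1 (-0.93), Epcam (-0.88), Pigf (-0.85), Cript (-0.81), Msh6 (-0.78), Cebpz (-0.72) and Yipf4 (-0.68) were lower in K754M, as were the Y-linked genes Eif2s3y (-1.40), Uty (-1.19) and Ddx3y (-0.76). Nxf3 (-1.86), Cpm (-1.18) and Rnf130 (-0.94) were lower too, with the clone and small RNA rows 5730469M10Rik (-1.02), AC122438.1 (-0.96) and U1 (-0.85). Among the falls from wild type, Gbp1 (1.35), Mir302c (1.33), Gbp2 (1.23) and Snord65 (0.71) were higher in K754M than in K754R. Among the rises, Dppa4 (2.64), Triml2 (2.40), Gm13007 (2.02), Triml1 (1.90), Psma8 (1.73), Lefty1 (1.67), Pdlim3 (1.20), Lzts1 (1.08), Gm14401 (1.07), Ino80c (0.83) and Galnt1 (0.80) were higher in K754M than in K754R, and Tek (-1.09), Ctla2a (-0.88), Pnrc2 (-0.73) and Gadd45g (-0.62) were lower. Ctla2a was above wild type in K754M and still higher in K754R, with 16.6 and 16.2 RPKM. No cause was tested for these differences.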

How the results depend on the processing

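Each of the 109 called genes kept its sign under every alternative that gave it a value, and no named gene reversed. Where the groups do not overlap, no change of filter, pseudocount, fitted libraries or variance trend can turn a sign. The number of calls moved widely. Against 109 (35 higher, 74 lower), it was 58 (18 and 40) without a filter, 185 (67 and 118) with a filter of 1 RPKM, 197 (66 and 131) without the Eed null libraries, 58 (13 and 45) with median centring, 60 (17 and 43) without a variance trend, and 0 (0 and 0) with the 4 compared libraries alone. Without the genes of chromosomes 11, 17 and Y, chosen after seeing the data, it was 16 (5 and 11). With a pseudocount of 1 the rises were 23. Leaving out 1 library gave 0 to 17 calls, 0 to 2 higher and 0 to 15 lower. Of the 19 interferon list genes 7 fell, 0 to 4 when 1 library was left out and 4 with median centring. The fall of Psmb8 lay between -4.90 and -2.54 over 14 alternatives and was called in 10; the rise of Acta2 lay between 2.07 and 2.69 over 15 and was called in 6.

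With replicate number as a block the calls were 230 (77 and 153), and all 109 were among them. Same-numbered K754M and wild type EB libraries deviated together with r = 0.203 over 19300 genes, and the other 5 pairs of EB groups had r from 0.0116 (wild type and Eed null) to 0.229 (K754M and K754R), but the labels give the numbers no meaning and there are only 2, so the block was not taken as a pairing. For K754M minus K754R EBs the block gave 1099 calls (559 and 540) against 698 (367 and 331), no filter gave 425 (205 and 220), the 4 libraries alone 1140 (576 and 564), and leaving out 1 library 21 to 64 (16 to 51 higher, 5 to 13 lower).

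For K754M minus Eed null EBs, where all alternatives were chosen after seeing the data, median centring gave 3261 higher and quantile normalization 2801, against 1770. Leaving out 1 library gave 2847 to 3971 calls, 770 to 1745 higher and 2060 to 2604 lower. In stem cells a pseudocount of 0.1 gave 1 call, higher, against 0. With 2 libraries a group, a gene that was not called may still differ, and values near 0.5 RPKM rest on few reads. The cause of each change in the number of calls was not tested.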

Other observations

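Some called genes fit in none of the groups described. Maged1, an X-linked adaptor of the MAGE family, rose with 107 and 103 RPKM in K754M EBs, against 65.4 and 67.1 RPKM in wild type EBs (0.66 ± 0.10, limma adjusted p = 0.0476), and Pmp22, a myelin protein also made by mesenchyme, was the 1 gene of chromosome 11 that rose, with 66.1 and 60.5 RPKM in K754M EBs, against 37.7 and 35.4 RPKM in wild type EBs (0.78 ± 0.11, limma adjusted p = 0.0396). Itga4, the alpha subunit of an integrin of migrating mesoderm and blood, had 1.47 and 1.25 RPKM in K754M EBs, against 0.395 and 0.225 RPKM in wild type EBs (1.21 ± 0.19, limma adjusted p = 0.04995). Ino80c, a subunit of the INO80 chromatin remodeller, had 31.5 and 29.4 RPKM in K754M EBs, against 14.5 and 12.8 RPKM in wild type EBs (1.13 ± 0.13, limma adjusted p = 0.0256). Gadd45g, a stress and differentiation gene, had 11.2 and 10.9 RPKM in K754M EBs, against 5.07 and 5.72 RPKM in wild type EBs (0.97 ± 0.13, limma adjusted p = 0.0373), and Pnrc2, a decapping adaptor, had 32.7 and 29.1 RPKM in K754M EBs, against 16.3 and 16.002 RPKM in wild type EBs (0.91 ± 0.12, limma adjusted p = 0.0371). In each of these 6 genes both K754M libraries were above both wild type libraries, which their choice among the called rises favours.

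Among the other falls, Cpm, a membrane carboxypeptidase, had 6.43 and 7.01 RPKM in K754M EBs, against 18.9 and 13.6 RPKM in wild type EBs (-1.200 ± 0.18, limma adjusted p = 0.0491), Klk8, a secreted protease, had 4.61 and 4.05 RPKM in K754M EBs, against 11.7 and 11.9 RPKM in wild type EBs (-1.35 ± 0.19, limma adjusted p = 0.0428), and the glutathione transferase gene Gstm5 had 7.15 and 5.73 RPKM in K754M EBs, against 16.5 and 14.8 RPKM in wild type EBs (-1.22 ± 0.18, limma adjusted p = 0.0438). Plg, which encodes plasminogen, had 0.0455 and 0.101 RPKM in K754M EBs, against 1.09 and 0.831 RPKM in wild type EBs (-1.35 ± 0.19, limma adjusted p = 0.0432), near the lower limit of what the depth resolves. All these genes were picked after their values were seen.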
